A study of Arabidopsis thaliana with 24 samples.

Results

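The comparison set out here is between Arabidopsis seedlings that received nitrogen and light together (N+L+) and seedlings that received neither (N-L-). It rests on 12 of the 24 arrays of the study, chosen by their treatment labels, with 6 arrays per treatment. Each set of 6 held 3 arrays of bzip1-1, a mutant that carries a T-DNA insertion in the only exon of the gene of the transcription factor bZIP1, and 3 arrays of WT-sib, plants from a backcross of the mutant that lack the insertion. Both lines are in the Col-0 background, and each is 1 line. Seedlings grew for 14 days with 0.5 mM KNO3 and 3 mM sucrose at 22 °C, under 16 h of light at 50 μE and 8 h of dark per day, and were moved to new plates for 2 h as a light period began. N+ plates held 20 mM KNO3 and 20 mM NH4NO3, and N- plates held KCl in their place. L+ plates stood in the light and L- plates were wrapped in foil, so that the N-L- seedlings met neither the nitrogen salts nor the dawn. Nitrate and ammonium were given together and cannot be told apart. Whole seedlings were harvested, so that fewer cells of a type and less RNA per cell cannot be told apart either.

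Plants take up nitrate, reduce it to nitrite and then to ammonium, and build the ammonium into glutamine and glutamate. Reducing power and carbon skeletons for these steps come from photosynthesis or from stored carbohydrate, and genes of the pathway are known to respond to nitrate itself as well as to light and sugars. Seedlings kept in the dark run short of carbon and are known to raise genes for the breakdown of amino acids and for the synthesis of asparagine, an amide that stores nitrogen with little carbon. The N+L- and N-L+ arrays, 6 of each, were used to split the joint change into an N part and an L part and to test whether the parts add up.

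The arrays held MAS 5.0 signal for 22746 probe sets once 64 control probe sets were left out, with a trimmed mean of 500 on each array and medians of 190.0 to 207.5. Both leaf and root RNA was present. The leaf gene RCA, which encodes Rubisco activase, had a lowest, median and highest signal of 22494, 26879 and 34876 on N+L+ arrays, against 22088, 24567 and 28100 on N-L- arrays, and the root gene PYK10, a beta-glucosidase, lay at 7191, 8968 and 12991 on N+L+ arrays, against 5611, 7812 and 13800 on N-L- arrays. Of 7 leaf and 8 root markers listed, 2 and 3 had a named probe set. None of these was called, where 23.3% of all probe sets were, and so few markers say little about tissue composition. The root hair genes EXPA7 and EXPA18 had low medians, of 159 and 85.0 on N+L+ arrays, against 136 and 83.5 on N-L- arrays. A probe set was called where limma's moderated test of N+L+ against N-L-, with genotype and replicate number in the model, gave an adjusted p under 0.05 over all 22746. Changes are log2 differences, N+L+ minus N-L-, with their standard errors (SE) after the ± sign. Brighter probe sets are the 13647 whose mean log2 signal on these arrays exceeds the 40th percentile.

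Nitrogen and light together changed 5307 probe sets (23.3% of those tested), of which 2649 rose (11.6%) and 2658 fell (11.7%). The median change of all probe sets was -0.03. A change of at least 2-fold was reached by 1701 called probe sets (7.48%), 930 higher and 771 lower, and one of at least 8-fold by 83 (0.365%), 54 higher and 29 lower. Every N+L+ array lay above every N-L- array for 1161 probe sets (5.1%), and every N+L+ array lay below every N-L- array for 1187 (5.22%).

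The enzymes that turn nitrate into ammonium were among the genes that rose most. NIA1, a nitrate reductase gene, had a lowest, median and highest signal of 6591, 7613 and 9061 on N+L+ arrays, against 289.8, 406 and 569 on N-L- arrays, and rose by 4.25 ± 0.12 (adjusted p = 9.2e-10), which is 19-fold. NIR1, which encodes the nitrite reductase of the plastid, lay at 4776, 6662 and 9481 on N+L+ arrays, against 447, 542 and 947 on N-L- arrays, and rose by 3.61 ± 0.13 (adjusted p = 9.9e-09). For both genes the treatments were far apart, and no array of one reached the other. G6PD3, a glucose 6-phosphate dehydrogenase that supplies reductant, lay at 1185, 1506 and 2394 on N+L+ arrays, against 76.1, 125 and 207 on N-L- arrays, and rose by 3.60 ± 0.20 (adjusted p = 1e-07). NIA2, the other nitrate reductase gene, was bright in both treatments, at 15852, 17163 and 18542 on N+L+ arrays, against 7186, 9977 and 12705 on N-L- arrays, and rose by 0.77 ± 0.15 (adjusted p = 0.0017). All its N+L+ arrays were still above all its N-L- arrays.

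**Figure D1:**
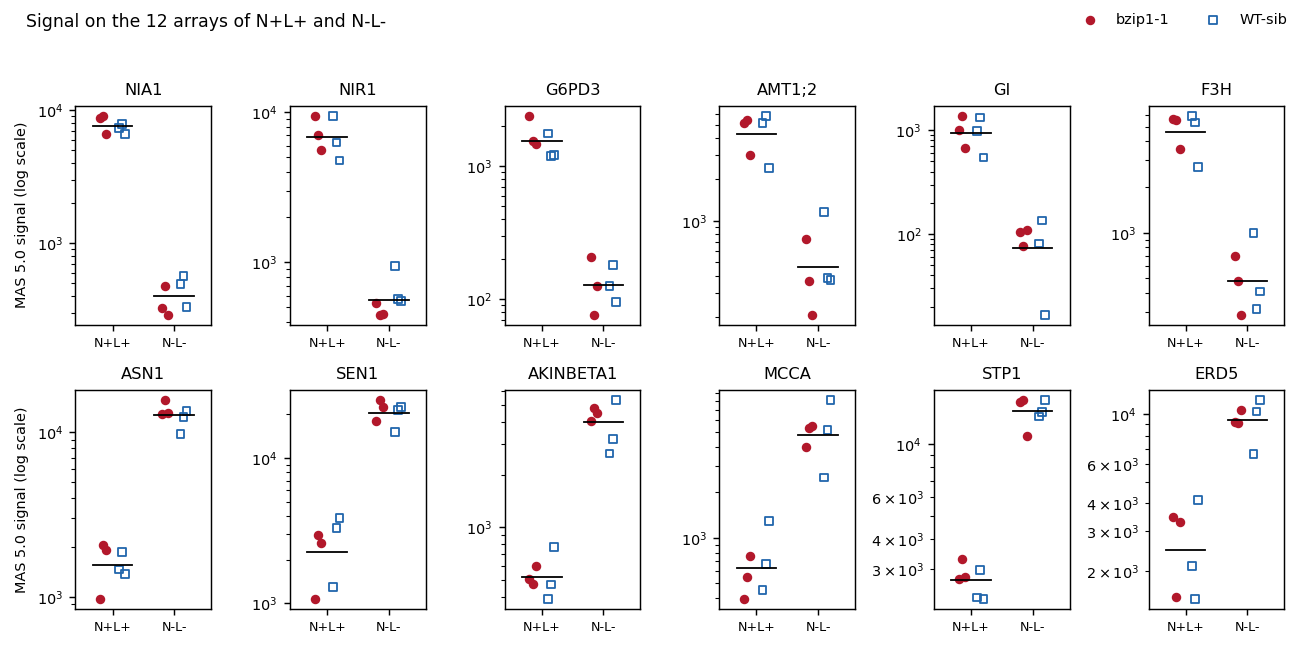
MAS 5.0 signal (log scale) of 12 genes on the 6 N+L+ arrays (left in each panel) and the 6 N-L- arrays (right). Filled circles are bzip1-1 arrays, open squares are WT-sib arrays and the lines are geometric means of 6 arrays; the upper row rose and the lower row fell, and the treatments overlap for none of the 12.

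Nitrate uptake and assimilation as a list mostly rose. Of its 19 listed loci 13 had a named probe set. Of these 13 probe sets 11 rose, beside 11.6% of all probe sets, 1 fell and 1 was not called. The median change was 1.77, beside -0.03 over all probe sets. Some genes could be named only through the study's own tables, which list genes that responded on these arrays. This held for 10 of the 13 here, so that the count is not independent evidence of a direction. Of the 3 that the platform's table names, 2 rose. The lists and their members were chosen with earlier results of these data known, so platform-named genes are not independent evidence either. Reductant and cofactor supply moved with the reductases. RFNR1, a ferredoxin NADP reductase of roots, lay at 1125, 1744 and 2205 on N+L+ arrays, against 165, 295 and 512 on N-L- arrays, and rose by 2.44 ± 0.21 (adjusted p = 3.9e-06). UPM1, which makes a precursor of the sirohaem that nitrite reductase carries, lay at 1708, 2079 and 3224 on N+L+ arrays, against 338, 421 and 484 on N-L- arrays, and rose by 2.42 ± 0.16 (adjusted p = 3.8e-07). Neither gene had overlapping treatments. G6PD2, a further glucose 6-phosphate dehydrogenase, rose by 1.77 ± 0.15, and the 6-phosphogluconate dehydrogenase family genes AT5G41670 and AT1G64190 rose by 2.39 ± 0.19 and 0.96 ± 0.11. One more gene of that family, AT3G02360, was not called, at 0.13 ± 0.12.

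Of 3 nitrate transport genes 2 rose and 1 fell. NRT1.1, a nitrate transporter and sensor, lay at 2451, 3559 and 4710.5 on N+L+ arrays, against 705, 1741 and 4425 on N-L- arrays, and rose by 1.14 ± 0.26 (adjusted p = 0.0058). NRT3.1, a partner protein of high-affinity nitrate transporters, lay at 2759, 4963 and 6589 on N+L+ arrays, against 1194, 2709 and 3259 on N-L- arrays, and rose by 0.98 ± 0.17 (adjusted p = 0.001). CLC-A, which loads nitrate into the vacuole, lay at 924, 1461 and 2262 on N+L+ arrays, against 1533, 2578 and 2916 on N-L- arrays, and fell by 0.68 ± 0.15 on the log2 scale (adjusted p = 0.005). Some N+L+ arrays overlapped with N-L- arrays for each of the 3.

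Ammonium and amide genes, measured for 6 of 18 listed loci, split, with 3 probe sets that rose, 3 that fell and 1 not called. Over all probe sets 11.6% rose and 11.7% fell. The study's tables alone name 5 of these 7. AMT1;2, an ammonium transporter, lay at 2424, 5123 and 5795 on N+L+ arrays, against 208, 379.6 and 1165 on N-L- arrays, and rose by 3.21 ± 0.21 (adjusted p = 3.8e-07). The asparagine synthetase genes went opposite ways. ASN2 lay at 2726, 3224 and 3758 on N+L+ arrays, against 298, 476 and 585 on N-L- arrays, and rose by 2.85 ± 0.18 (adjusted p = 2.3e-07). ASN1, known as the dark-induced one, lay at 974, 1673 and 2068 on N+L+ arrays, against 9787, 13068 and 15803 on N-L- arrays, and fell by 3.03 ± 0.14 on the log2 scale (adjusted p = 4.3e-08), which is 8.17-fold lower. For AMT1;2, ASN2 and ASN1 the treatments did not overlap. GLT1, the NADH-dependent glutamate synthase, rose by 1.05 ± 0.13 (adjusted p = 7.2e-05), GDH2, a glutamate dehydrogenase, fell by 0.88 ± 0.14 (adjusted p = 0.00054), and the brighter probe set of GAT1_2.1, a glutamine amidotransferase, fell by 0.93 ± 0.22 (adjusted p = 0.008).

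Of 20 listed dark-inducible and starvation loci 10 were measured, and all 10 fell, beside 11.7% of all probe sets. Their changes ran from -3.18 to -0.85, with a median of -1.998. On 9 of them, beside 5.22% of all probe sets, every N+L+ array lay below every N-L- array. The study's tables alone name 6, and the 4 that the platform's table names fell as well. SEN1, a senescence-associated gene also called DARK INDUCIBLE 1, lay at 1075, 2782 and 3867 on N+L+ arrays, against 15122, 21995 and 25259 on N-L- arrays, and fell by 3.18 ± 0.17 on the log2 scale (adjusted p = 8.4e-08). AKINBETA1, a regulatory subunit of the energy-sensing kinase SnRK1, lay at 388, 488 and 769 on N+L+ arrays, against 2640.4, 4302 and 5375 on N-L- arrays, and fell by 2.94 ± 0.13 (adjusted p = 4.3e-08). MCCA, a subunit of the leucine-degrading methylcrotonyl-CoA carboxylase, lay at 396, 613 and 1287 on N+L+ arrays, against 2497, 5228 and 8156 on N-L- arrays, and fell by 2.92 ± 0.15 (adjusted p = 7.3e-08). Other enzymes of amino acid breakdown fell too. IVD, DIN4 and DIN3, of the breakdown of branched-chain amino acids, changed by -2.07 ± 0.12, -2.11 ± 0.12 and -1.90 ± 0.14, the proline dehydrogenase ERD5 by -1.92 ± 0.20, and ETFQO, which passes electrons from such breakdown to the respiratory chain, by -1.33 ± 0.15. The trehalose phosphate synthase family members TPS9 and TPS10 changed by -1.69 ± 0.13 and -0.85 ± 0.12.

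Of the 12 highest changes among brighter called probe sets with 1 locus, 8 belonged to genes outside all the lists. AT1G06000 lay at 1028, 2924 and 3493 on N+L+ arrays, against 11.1, 66.8 and 201 on N-L- arrays, and rose by 5.72 ± 0.52 (adjusted p = 5.2e-06). AT4G34950, annotated as a nodulin family protein, lay at 376, 1370.1 and 2193 on N+L+ arrays, against 12.7, 28.4 and 50.1 on N-L- arrays, and rose by 5.40 ± 0.26 (adjusted p = 5.5e-08). Their lowest N-L- signals were near the bottom of the scale, where small differences in signal give large log2 differences. AT5G48570, the peptidyl-prolyl isomerase ROF2, lay at 374, 799 and 1168 on N+L+ arrays, against 29.2, 36.7 and 57.8 on N-L- arrays, and rose by 4.22 ± 0.29. AT3G44450 lay at 1559, 2608 and 4028 on N+L+ arrays, against 106, 139.7 and 256 on N-L- arrays, and rose by 4.07 ± 0.19. The other 4 were AT2G27420, AT3G14200, AT5G12110 and AT1G73600, which rose by 3.88 ± 0.33, 3.86 ± 0.50, 3.82 ± 0.21 and 3.60 ± 0.31. None of the 12 had overlapping treatments, but they were picked for their high changes on these same arrays. Over all probe sets 5.1% lay higher without overlap.

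At the other end, 10 of the 12 lowest changes belonged to loci without a gene symbol. AT1G33055 lay at 14.7, 59.2 and 81.2 on N+L+ arrays, against 491, 996 and 1385 on N-L- arrays, and fell by 4.38 ± 0.30 on the log2 scale (adjusted p = 6.4e-07). AT3G62950 lay at 7.51, 83.3 and 296 on N+L+ arrays, against 701, 951 and 1386 on N-L- arrays. It fell by 3.79 ± 0.51 (adjusted p = 0.00013). The lowest N+L+ signals of AT1G33055 and AT3G62950 were near the bottom of the scale, where small differences in signal give large log2 differences. SIS, named for its induction by salt, lay at 210.1, 290.2 and 366 on N+L+ arrays, against 2039, 3158 and 3809.7 on N-L- arrays, and fell by 3.41 ± 0.16 (adjusted p = 4.3e-08). These 3 had no overlap between treatments, nor had the other 9, beside 5.22% of all probe sets that lay lower without overlap. All 12 were picked for their low changes on these same arrays. AT4G27450 lay at 666, 865 and 1252 on N+L+ arrays, against 6561, 9615 and 10422 on N-L- arrays, and fell by 3.31 ± 0.13 (adjusted p = 1.2e-08). AT3G62550, AT2G35170, AT2G20670 and AT3G26510 fell by 3.55 ± 0.26, 3.51 ± 0.24, 3.44 ± 0.31 and 3.09 ± 0.16, and AT1G54740 fell 9.16-fold. A RING finger gene, AT1G49200, and an F-box gene, AT3G23880, changed by -3.50 ± 0.40 and -3.26 ± 0.21, and SEN1 completes the 12.

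Flavonoid synthesis rose in 8 of 10 measured genes (of 20 listed), beside 11.6% of all probe sets, and 2 were not called. The median change was 1.69. The study's tables alone name 7 of the 10, and 2 of the other 3 rose. F3H, which hydroxylates flavanones, lay at 2713, 5446 and 5921 on N+L+ arrays, against 288, 447 and 992 on N-L- arrays, and rose by 3.26 ± 0.18 (adjusted p = 9.2e-08). UGT78D1, a flavonol glycosyltransferase, lay at 1054, 1259 and 1542 on N+L+ arrays, against 104, 142 and 234 on N-L- arrays, and rose by 3.11 ± 0.16 (adjusted p = 7.3e-08). Both were far apart between treatments. A further flavonoid glycosyltransferase, UGT78D2, rose by 1.78 ± 0.19, chalcone isomerase, TT5, rose by 1.93 ± 0.10, and the glutathione transferase TT19 rose by 1.78 ± 0.39. PAL1 and C4H, at the entry of the phenylpropanoid pathway, rose by 1.61 ± 0.18 and 0.52 ± 0.13. MYB12, a regulator of flavonol synthesis, was dim, and its rise of 1.23 ± 0.40 (adjusted p = 0.042) lost its call when any of 9 single arrays was left out (adjusted p of 0.0619 to 0.111). DFR and MYB11 were not called, at 0.35 ± 0.25 and 0.78 ± 0.38.

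All 7 measured clock genes (of 21 listed) were called, beside 23.3% of all probe sets, 5 higher and 2 lower. The study's tables alone name 6 of them. GI, a clock and flowering gene, lay at 547, 996 and 1379.8 on N+L+ arrays, against 16.7, 93.5 and 135 on N-L- arrays, and rose by 3.66 ± 0.33 (adjusted p = 4.7e-06). The paralogues LNK1 and LNK2, coactivators of evening genes, went opposite ways, as LNK1 rose by 1.63 ± 0.09 and LNK2 fell by 0.78 ± 0.14 on the log2 scale. CDF1, PRR7 and CHE rose by 1.22 ± 0.14, 0.97 ± 0.23 and 0.51 ± 0.13, and ELF3, a subunit of the evening complex, fell by 0.77 ± 0.17. Among 6 measured genes of light perception and signalling (of 32 listed) 2 fell, 2 rose and 2 were not called. The study's tables alone name the 4 that were called. The photoreceptor genes CRY1 and PHYA fell by 1.54 ± 0.15 and 1.44 ± 0.13, and on neither did the treatments overlap. BBX22 and SPA4 rose by 1.27 ± 0.12 and 0.59 ± 0.12, and HYH and FHL gave 0.38 ± 0.16 and -0.68 ± 0.35.

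**Figure D2:**
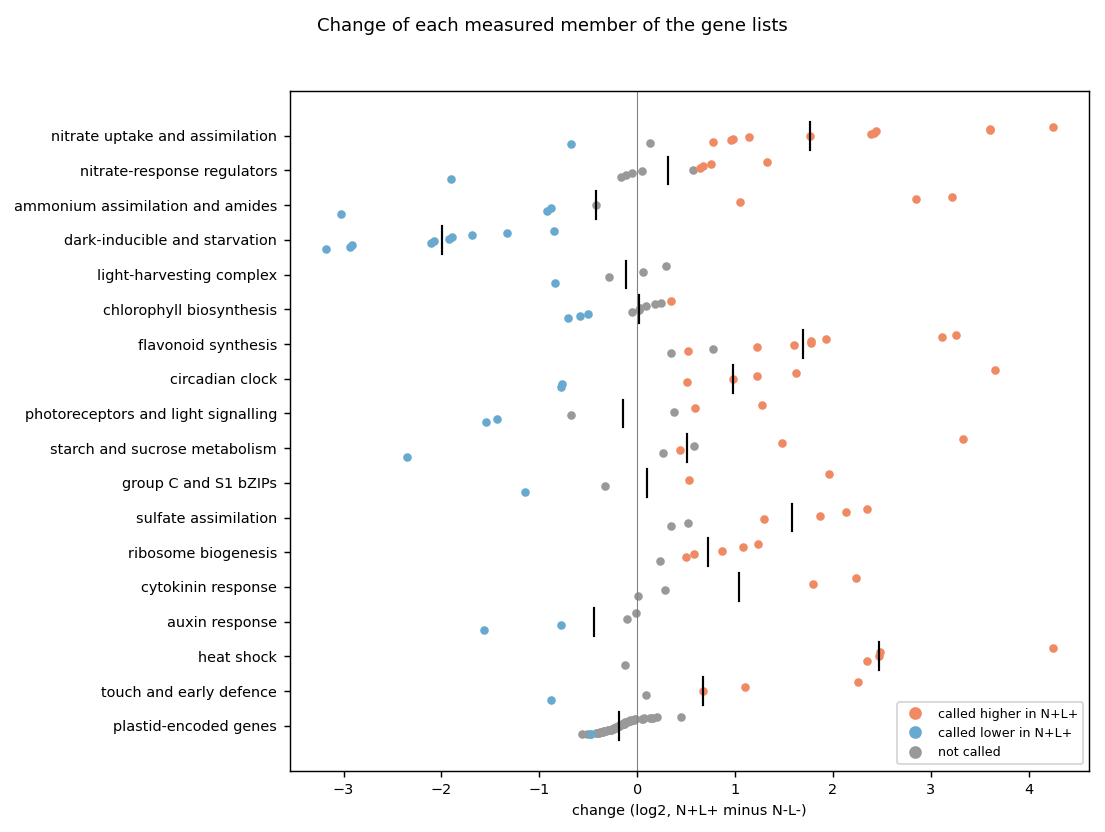
Change (log2, N+L+ minus N-L-) of each measured member of the gene lists with 4 or more named probe sets. Points are probe sets, coloured by whether they were called higher, lower or not called, and black bars are list medians; all 10 dark-inducible genes lie below 0, and 11 of 13 nitrate genes were called higher.

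Lists of the photosynthetic apparatus were also measured only in part. Measured were 4 of 20 listed loci of the light-harvesting complexes, 10 of 25 of chlorophyll synthesis and 3 of 16 of the Calvin cycle. Of the 4 light-harvesting complex genes 1 was called, beside 23.3% of all probe sets. This was LHCB2.3, the 1 of the 4 that the study's tables alone name, which fell by 0.84 ± 0.19 (adjusted p = 0.0063). LHCB4.1, LHCB4.2 and LHCB4.3 gave 0.06 ± 0.14, -0.29 ± 0.15 and 0.30 ± 0.20. The 10 chlorophyll synthesis genes had a median change of 0.02, with 1 higher, 3 lower and 6 not called. PORB, a protochlorophyllide oxidoreductase, and CHLM, a methyltransferase of the pathway, fell by 0.71 ± 0.16 and 0.58 ± 0.14. PORC and HEMA2 passed narrowly, at 0.34 ± 0.11 and -0.50 ± 0.17, and each lost its call when any of 9 single arrays was left out, with adjusted p up to 0.123 for PORC and up to 0.118 for HEMA2. The 6 not called were GSA1, HEMB1, HEME1, HEME2, CHLI2 and CHLP, with changes from -0.06 to 0.24. None of 3 Calvin cycle genes, PRK, SBPASE and RCA, was called, at -0.06 ± 0.16, 0.19 ± 0.16 and 0.14 ± 0.15, and of 69 plastid-encoded genes 1 fell, with a median of -0.18.

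Of 6 measured genes on the sulfate assimilation list (of 14 listed) 4 rose, beside 11.6% of all probe sets. All 6 rose with dim probe sets left out. The 4 are named only by the study's tables, and 1 of them, MYB28, is not an enzyme of sulfate assimilation. APR2, an adenosine 5'-phosphosulfate reductase, lay at 3296, 6407 and 7278 on N+L+ arrays, against 606, 1113 and 1989.6 on N-L- arrays, and rose by 2.34 ± 0.26 (adjusted p = 2.8e-05). The serine acetyltransferase SERAT2;1, which makes the acceptor for sulfide, lay at 6188, 8517 and 10868 on N+L+ arrays, against 1372, 1993 and 2413 on N-L- arrays, and rose by 2.14 ± 0.10 (adjusted p = 5.5e-08). Its relative SERAT2;2 rose by 1.29 ± 0.13, and MYB28, a regulator of aliphatic glucosinolates, rose by 1.87 ± 0.19. ATPS3 and SIR, an ATP sulfurylase and the sulfite reductase, gave 0.52 ± 0.19 and 0.35 ± 0.12 and were not called.

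In starch and sucrose metabolism 3 of 6 measured genes (of 17 listed) rose and 1 fell, beside 11.6% and 11.7% of all probe sets. The study's tables alone name 4 of the 6, and 1 of the other 2 rose. GPT2, the glucose 6-phosphate translocator of plastids, lay at 169.7, 1239 and 1919.7 on N+L+ arrays, against 45.6, 76.8 and 152 on N-L- arrays, and rose by 3.33 ± 0.30 (adjusted p = 5.3e-06). STP1, a hexose transporter, lay at 2255, 2753 and 3322 on N+L+ arrays, against 10783, 14294 and 15326 on N-L- arrays, and fell by 2.35 ± 0.12 on the log2 scale (adjusted p = 6.1e-08). The treatments did not overlap for either gene. APL3, a subunit of ADP-glucose pyrophosphorylase, and DPE2, which acts on maltose from starch, rose by 1.48 ± 0.27 and 0.44 ± 0.12, and SEX4 and SPS4F gave 0.58 ± 0.21 and 0.26 ± 0.15.

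Among growth and stress genes most lists were short and all were measured only in part. Over all probe sets 11.6% rose and 11.7% fell. Of 6 ribosome biogenesis genes 5 rose, with FIB2, a fibrillarin, highest at 1.24 ± 0.17; of the 4 that the platform's table names, 3 rose. NOP56, a nucleolar protein, AT3G15460, of the brix domain family, AT3G05060 and the WD-40 family gene AT2G40360 rose by 0.87 ± 0.15, 1.09 ± 0.15, 0.58 ± 0.13 and 0.50 ± 0.10, and PES gave 0.23 ± 0.13. ARR6, a cytokinin response regulator, rose by 2.23 ± 0.24, and IPT3, which makes cytokinin, rose 3.48-fold (adjusted p = 2.2e-05). The study's tables alone name these 2 genes. ARR15 and ARR16, named by the platform's table, gave 0.01 ± 0.26 and 0.28 ± 0.21. Of 4 auxin response genes GH3.5 and IAA2 fell, by 1.57 ± 0.14 and 0.78 ± 0.10, and GH3.3 and IAA29 gave -0.10 ± 0.17 and -0.02 ± 0.34. Of 5 heat shock genes 4 rose, all for small heat shock proteins. The study's tables alone name 3 of the 5, and 1 of the other 2 rose. HSP17.6A, the one with the highest change, lay at 204, 397 and 633 on N+L+ arrays, against 9.73, 19.6 and 43.2 on N-L- arrays, and rose by 4.25 ± 0.43 (adjusted p = 1.2e-05), but with dim probe sets left out 1 member of the list, HSP17.6B, was called. HSP17.6B rose by 2.48 ± 0.26, HSP17.6II rose by 2.47 ± 0.28 and HSP17.4 rose by 2.35 ± 0.50, while HSP22 gave -0.12 ± 0.26. ZAT12 and WRKY33, transcription factors of stress and defence, rose by 2.26 ± 0.15 and 0.67 ± 0.18, ZAT10 rose 2.14-fold (adjusted p = 0.00011), and WRKY53 gave 0.09 ± 0.19. The receptor kinase gene FRK1 fell by 0.88 ± 0.28 on the log2 scale, and this call was lost when any of 9 single arrays was left out (adjusted p of 0.0603 to 0.101). Of these 5 stress and defence genes the study's tables alone name 3, and 1 of the other 2 rose.

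Of the relatives of bZIP1 in groups C and S1 of the bZIP factors, 2 of 4 measured (9 listed) rose and 1 fell. Over all probe sets 11.6% rose and 11.7% fell. The study's tables alone name 2 of the 4, and 1 of the other 2 rose. GBF6, also called bZIP11, lay at 650.4, 898 and 1136 on N+L+ arrays, against 163, 227 and 373 on N-L- arrays, and rose by 1.96 ± 0.17 (adjusted p = 3.1e-06). BZIP9 lay at 741, 762 and 814 on N+L+ arrays, against 1450, 1708 and 1997 on N-L- arrays, and fell by 1.15 ± 0.10 on the log2 scale (adjusted p = 4.2e-06). Neither had overlapping treatments. BZIP44 rose by 0.53 ± 0.17, a call lost when any of 8 single arrays was left out (adjusted p of 0.0591 to 0.0945), and BZIP53 gave -0.32 ± 0.12. No table used here names the probe set of bZIP1 itself, so that its level was not analysed here, and AT5G49440, which the study also names, gave -0.18 ± 0.16.

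To see which input each change came with, the joint change was split over all 24 arrays into an average N change and an average L change, which add up to it. The average L change was called for 7415 probe sets (32.6%), 3952 up and 3463 down (15.2%), and the average N change for 755 (3.32%), 460 up (2.02%) and 295 down (1.3%). With arrays scaled to a common median the N calls were 586 up and 202 down, and without the replicate number in the model they were 203 up and 70 down. The L part was the larger of the 2 for 2345 of the probe sets that were higher in N+L+ and for 2414 of those that were lower, and the N part was larger for 304 and 244. These counts describe sizes, since both parts share arrays with the joint comparison.

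The reductase genes NIA1 and NIR1 had both parts above 0. NIA1 had an N part of 2.53 and an L part of 1.72, and its median signals were 7613 on N+L+, 2558 on N+L-, 1622 on N-L+ and 406 on N-L- arrays, so that its medians with 1 input lay between those with both and with neither. The medians of NIR1 had the same order, at 6662 on N+L+, 3545 on N+L-, 1193 on N-L+ and 542 on N-L- arrays. Single arrays overlapped, since the N+L- arrays of NIA1 lay at 949, 2558 and 7746 and those of NIR1 at 814, 3545 and 11719, and the highest of them were within or above the N+L+ arrays. For G6PD3, UPM1 and RFNR1 the N parts were 2.84, 2.19 and 1.94, and the L parts, none of them called, were 0.76, 0.23 and 0.50. Over the 13 nitrate probe sets the N part was called above 0 for 10, beside 2.02% of all probe sets. The L part was called above 0 for 6 of the 13, beside 3952 of all 22746 probe sets. AMT1;2, GI, F3H and GPT2 showed the reverse, with L parts of 3.49, 3.77, 3.49 and 3.91 and N parts, none of them called, of -0.28, -0.11, -0.23 and -0.59. ASN1 and SEN1 had L parts of -3.24 and -3.10 beside N parts of 0.21 and -0.07 that were not called. All 10 dark-inducible genes had an L part called below 0, beside 15.2% of all probe sets. Of these genes 3 had an N part called above 0, beside 2.02%.

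Among brighter probe sets with 1 locus and both parts called, 165 had both parts above 0 and 78 had both below 0. All of them were called in the joint comparison, which is the sum of the parts and shares their arrays. The median size of the joint change was 1.07 in each set. The 6 genes with the highest smaller part were NIA1, DREB2A, AT5G16960, UGT73B4, NIR1 and PBP1. DREB2A, a transcription factor of drought and heat responses, lay at 994, 2459 and 2874 on N+L+ arrays, against 156, 207 and 362 on N-L- arrays, and rose by 3.15 ± 0.16 (adjusted p = 6.1e-08). Its medians were 2459 on N+L+, 287 on N+L-, 362 on N-L+ and 207 on N-L- arrays, so that neither input alone came near its level with both. AT5G16960, annotated as a putative NADP-dependent oxidoreductase, had medians of 1034 on N+L+, 159 on N+L-, 193 on N-L+ and 140.3 on N-L- arrays, and PBP1, a calcium-binding partner of the kinase PINOID, had medians of 1073 on N+L+, 243 on N+L-, 249 on N-L+ and 191 on N-L- arrays. UGT73B4, a glycosyltransferase, had medians of 1633 on N+L+, 611 on N+L-, 525 on N-L+ and 289 on N-L- arrays. For these 4 genes the N+L+ median was the highest of the 4 treatments.

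Opposed parts subtract in the joint change, which is their sum and so is smaller by construction. The N part was above 0 and the L part below 0 for 100 probe sets, of which 12 were higher in N+L+, 40 were lower and 48 were not called. The reverse held for 75, of which 23 were higher, 1 was lower and 51 were not called. The median size of the joint change was 0.55 in the 100 and 0.23 in the 75, beside 1.07 where the parts went the same way. AT1G25550, annotated as a myb family transcription factor, lay at 1044, 1334 and 1554 on N+L+ arrays, against 915, 1282 and 1439.5 on N-L- arrays, a difference of 0.05 ± 0.11 (adjusted p = 0.81). Its N part was 1.52 and its L part -1.47, both called, and it lay at 2200.3, 2262 and 2572 on N+L- arrays and at 203, 290.2 and 379.7 on N-L+ arrays. The N+L+ and N-L- arrays of this gene thus overlapped, while the N+L- arrays were above all of them and the N-L+ arrays below. The glutaredoxin family genes AT4G15700 and AT4G15690 gave 0.02 ± 0.17 and 0.58 ± 0.30, from N parts of 1.51 and 2.31 and L parts of -1.49 and -1.73. AT1G49500 fell by 0.94 ± 0.15 on the log2 scale, from an N part of 1.72 and an L part of -2.65.

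**Figure D3:**
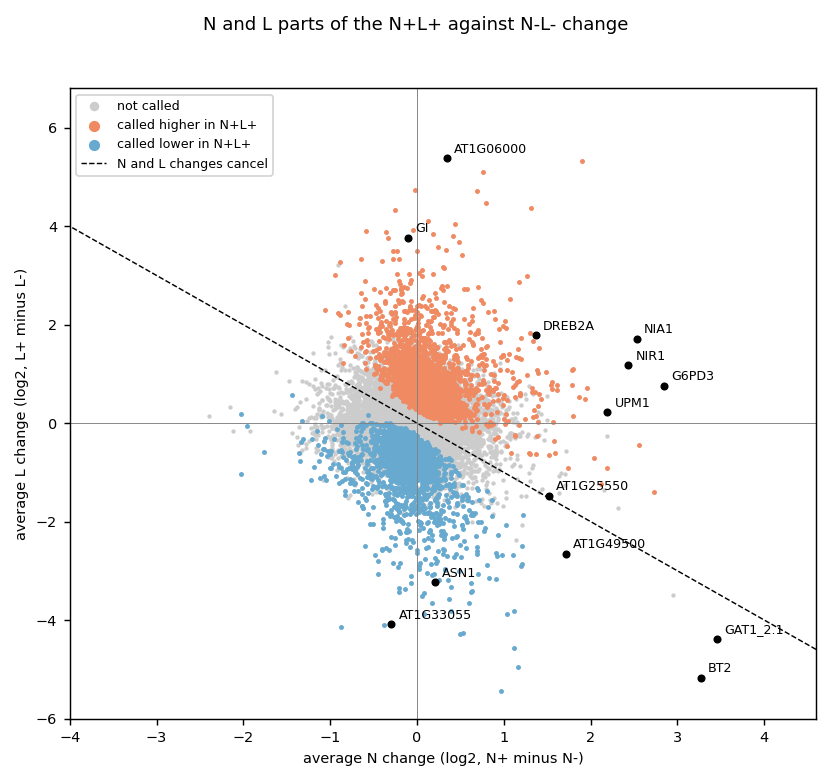
Average L change (log2, L+ minus L-) against average N change (log2, N+ minus N-) of 22746 probe sets, coloured by the call for N+L+ against N-L-. On the dashed line the parts cancel; NIA1, NIR1 and DREB2A lie where both parts are above 0, and AT1G25550 lies on the line.

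Nitrate-response regulators often had opposed parts. Of 10 measured (19 listed), 4 rose, 1 fell and 5 were not called in the joint comparison, where 23.3% of all probe sets were called. The N part was called above 0 for 7, beside 2.02% of all probe sets, and the L part below 0 for 8, beside 15.2%. The study's tables alone name 7 of the 10, and none of the other 3 was called in the joint comparison. Of those 3, AT1G25550 and AT1G68670 had both parts called, with N parts of 1.52 and 0.99 and L parts of -1.47 and -1.15. AT3G25790 had neither part called. CIPK3, a kinase that binds calcium sensors, rose by 1.33 ± 0.19 (adjusted p = 0.00019), from an N part of 2.04 and an L part of -0.71. LBD37, LBD38 and LBD39, repressors of nitrogen genes, rose by 0.67 ± 0.15, 0.64 ± 0.13 and 0.75 ± 0.24, and the call of LBD39 was lost when any of 6 single arrays was left out (adjusted p of 0.0515 to 0.0974). CIPK23, TCP20, AT3G25790 and AT1G68670 gave -0.11 ± 0.14, -0.06 ± 0.11, 0.57 ± 0.41 and -0.16 ± 0.14. BT2, a BTB and TAZ domain protein, was the 1 that fell. It lay at 1034, 2019 and 3312 on N+L+ arrays, against 4644, 7379 and 9488 on N-L- arrays, without overlap, and fell by 1.90 ± 0.19 on the log2 scale (adjusted p = 1.3e-05).

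Whether N and L added up on the log2 scale was tested with L*N, the N change in light minus the N change in the dark, over all 24 arrays. It was called for 44 probe sets (0.193%), 43 above 0 (0.189%) and 1 below (0.0044%). Without the replicate number in the model it was called for 13, and of the 12 genes that the naming rule picked for L*N BT2 and DREB2A were then called. With single arrays left out the count was 29 to 73, lowest without bzip1-1 N-L- replicate 2 or bzip1-1 N+L+ replicate 1 and highest without WT-sib N-L- replicate 2 or WT-sib N-L+ replicate 1. BT2 had the highest L*N, 5.18 ± 0.77 (adjusted p = 0.0015). It lay at 9176, 11992 and 15103 on N+L- arrays and at 6.65, 50.5 and 153 on N-L+ arrays, so that N raised it by 5.86 ± 0.54 in light (adjusted p = 3.9e-07), against a difference of 0.67 ± 0.54 in the dark (adjusted p = 0.74). The brighter probe set of GAT1_2.1 had an L*N of 3.37 ± 0.56 (adjusted p = 0.0049). It lay at 864, 3254 and 4989 on N+L- arrays and at 9.07, 10.7 and 22.4 on N-L+ arrays. The dimmer probe set of this gene was not called, with an L*N of -0.26 ± 0.71 (adjusted p = 0.95). For BT2 and the brighter probe set of GAT1_2.1 the N-L+ arrays were the lowest of all, and their signal was near the bottom of the scale.

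DREB2A had its highest median when both inputs were given, and had an L*N of 2.22 ± 0.29 (adjusted p = 0.00053), since N raised it by 2.48 ± 0.20 in light, against a difference of 0.26 ± 0.20 in the dark (adjusted p = 0.73). AT1G22810 had 2.28 ± 0.41, with medians of 764 on N+L+, 71.2 on N+L-, 181 on N-L+ and 94.3 on N-L- arrays, and its N+L+ and N-L- arrays overlapped. AT1G05575 had 2.25 ± 0.38, with medians of 2049.6 on N+L+, 906 on N+L-, 364 on N-L+ and 782 on N-L- arrays, and AT5G14730 had 2.17 ± 0.32, with medians of 2476 on N+L+, 778 on N+L-, 302 on N-L+ and 453 on N-L- arrays. SERAT2;1, singled out after its values were seen for its small error, had an L*N of 1.63 ± 0.15 (adjusted p = 8.3e-06), with medians of 8517 on N+L+, 1925 on N+L-, 2521 on N-L+ and 1993 on N-L- arrays. ASPGB1, an asparaginase, was the 1 probe set below 0, at -1.49 ± 0.24 (adjusted p = 0.0047). It rose by 1.15 ± 0.17 in the joint comparison, and its median was highest on N-L+ arrays, with medians of 718 on N+L+, 511 on N+L-, 1351 on N-L+ and 316 on N-L- arrays.

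**Figure D4:**
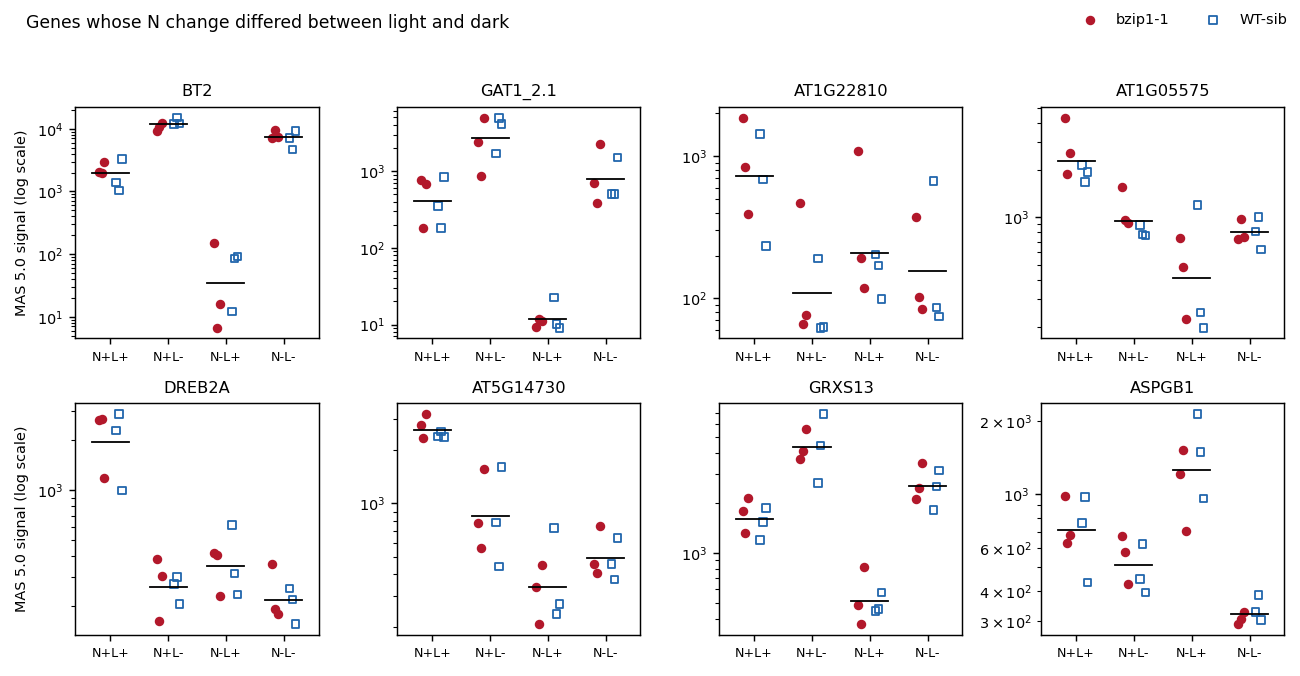
MAS 5.0 signal (log scale) of 8 genes whose N change differed between light and dark, in N+L+, N+L-, N-L+ and N-L-. Filled circles are bzip1-1 arrays, open squares are WT-sib arrays and the lines are geometric means of 6 arrays. BT2, GAT1_2.1 (its brighter probe set) and GRXS13 are lowest on N-L+ arrays, and DREB2A is highest on N+L+ arrays.

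Of the 43 probe sets with an L*N above 0, 41 were raised by N in light (of 467 called, 2.05%, with 140 down, 0.615%), and 4 by N in the dark (of 139 called, 0.611%). Light without N lowered 31 of them and raised 3, where it was called for 5492 probe sets in all (24.1%). The median N change of the 43 was 1.69 in light and 0.06 in the dark, and their median L change was 0.09 with N (21.2% of all probe sets were called there) and -1.27 without N. In the joint comparison 17 of the 43 were higher in N+L+, 14 were lower and 12 were not called. These values enter L*N itself and are given as a description.

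The study asked what the loss of bZIP1 does to responses of this kind, and the joint response was therefore set against genotype. In bzip1-1 it was called for 3104 probe sets (13.6%), 1557 higher (6.85%) and 1547 lower (6.8%), and in WT-sib for 2885 (12.7%), 1473 higher (6.48%) and 1412 lower (6.21%). The difference between these responses was called for 0 probe sets by limma (0.0%), with a smallest adjusted p of 0.96, and for 1056 at an unadjusted p under 0.05, where p-values spread evenly would give 1137. Its median SE was 0.39, with 3 arrays per group, against 0.20 for the joint response itself. The responses in bzip1-1 and WT-sib had a Pearson r of 0.53 over all 22746 probe sets and of 0.86 over the 13647 brighter ones, and probe sets do not count as replicates.

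**Figure D5:**
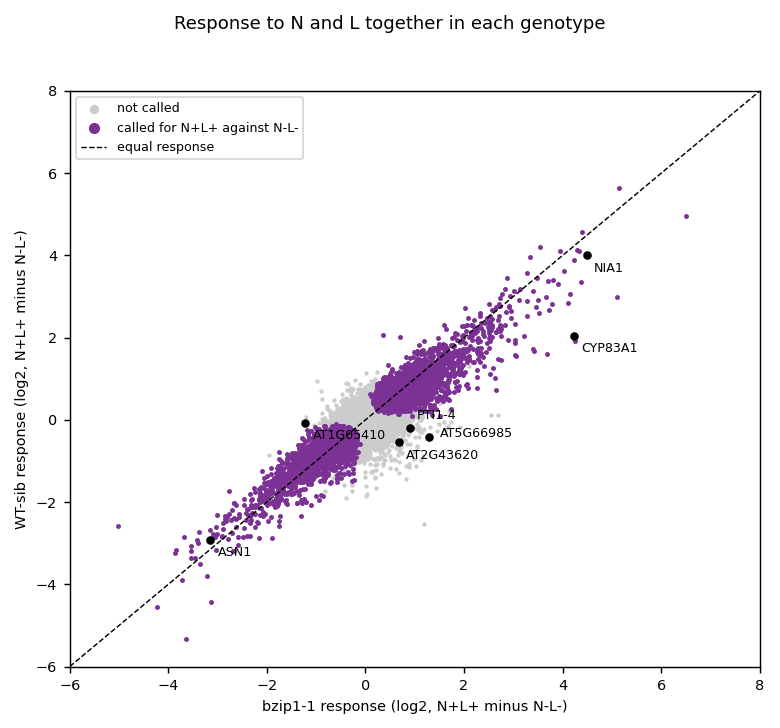
Response to N and L together (log2, N+L+ minus N-L-) in bzip1-1 (horizontal axis) and in WT-sib (vertical axis), for 13647 brighter probe sets, coloured by the call for N+L+ against N-L-. The dashed line marks equal responses; ASN1 lies close to it, and the 5 genes with the smallest p for a difference lie off it.

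ASN1 and NIA1 each passed the test within both lines. ASN1 fell by 3.15 ± 0.20 on the log2 scale in bzip1-1 and by 2.91 ± 0.20 in WT-sib, a difference of -0.23 ± 0.28. NIA1 rose by 4.50 ± 0.14 in bzip1-1 and by 4.00 ± 0.14 in WT-sib, a difference of 0.49 ± 0.20 that was not called. The smallest p for a difference belonged to PTI1-4, a Pto-interacting kinase. In bzip1-1 it had 1571, 1195 and 651 on the 3 N+L+ arrays, against 846, 611 and 362 on the 3 N-L- arrays. In WT-sib it had 872, 779 and 446 on N+L+ arrays, against 1098, 767 and 533 on N-L- arrays. Its response was 0.90 ± 0.13 in bzip1-1 and -0.19 ± 0.13 in WT-sib (adjusted p of the difference = 0.96). CYP83A1, a cytochrome P450 of glucosinolate synthesis, had responses of 4.23 ± 0.34 in bzip1-1 and 2.04 ± 0.34 in WT-sib. AT5G66985, AT1G05410 and AT2G43620 had differences between bzip1-1 and WT-sib of 1.70 ± 0.36, -1.16 ± 0.27 and 1.23 ± 0.30. None of the 5 passed the test, each with an adjusted p of 0.96.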

How the data were processed

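The authors hybridized total RNA of whole seedlings to ATH1 arrays and computed MAS 5.0 signal. The deposited values are intensity on the linear scale for 22810 probe sets, brought on each array to a mean of 500 that leaves out 2% at either end. The methods call the 3 replicates per group independent experiments. Arrays have no depth, and their number limits the precision.

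Values were taken to log2 as they stand. Each test left out 64 control probe sets and ran over the other 22746. The fits used limma (version 3.58.1, R 4.3.3) with eBayes and an intensity trend, two-sided, and Benjamini-Hochberg adjustment spanned every probe set tested. The joint comparison used 12 arrays with treatment, genotype and replicate number, the genotype difference used the same arrays with a product term, and the N and L parts and L*N used all 24 arrays. The fits were also run on simulated data with independent errors. These data left out the shared deviations of arrays with the same replicate number, so they do not show how the fits handle them.

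Genes were named by rule: the 12 highest and 12 lowest joint changes, the 6 highest and 6 lowest L*N and the 6 genes each with opposed and like parts, all called, brighter and of 1 locus; the 5 smallest p for the genotype difference; list members; and genes that the study names. The members and lists were chosen with earlier results of these data known. The platform's table gave 1 locus for 13436 probe sets, the study's tables gave 874 more, and 7856 had no name. Of lists not described in the report, photorespiration had 1 measured member of 11 listed, HPR1, not called at -0.14 ± 0.15. Photoprotection had 1 of 7, VDE, which fell by 0.63 ± 0.17 on the log2 scale. This call was lost without bzip1-1 N-L- replicate 1 (adjusted p = 0.051). Alternatives were the model without replicate number, quantile normalization, scaling to a common median, adding 32 before log2, leaving out dim probe sets, no trend, the methods' ANOVA on linear signal, other thresholds, all 24 arrays, single genotypes, and single arrays or replicate numbers left out. Promoter motifs were planned and not analysed here. Figures were drawn with matplotlib 3.10.9 in Python 3.11.15.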

Additional observations from a re-analysis of the deposited data

Results flagged for a closer look

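The N change differed between light and dark, by the test of L*N, for 44 probe sets. Among the genes named by rule the difference was 5.18 for BT2, 3.37 for the brighter probe set of GAT1_2.1 and 2.28 for AT1G22810. It was 2.25 for AT1G05575, 2.22 for DREB2A and 2.17 for AT5G14730. The lowest called values were 1.13 for CRK3, a receptor-like kinase, 1.04 for PUB23, a U-box protein, 0.95 for AT2G39400, an alpha/beta hydrolase family gene, 0.90 for AT5G07860, a transferase family gene, 0.87 for GRXS13, a glutaredoxin, and -1.49 for ASPGB1. CRK3, PUB23, AT2G39400, AT5G07860 and GRXS13 each lost the call when some single arrays of the 24 were left out, 6 arrays for AT5G07860 and 21 for AT2G39400 (adjusted p up to 0.0976).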

How the results depend on the processing

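Of 118 named results called in the joint comparison, 0 changed direction under the 25 alternatives run (113 of them with dim probe sets left out), and 8 lost their call without some single array (MYB12, LBD39, BZIP44, AT1G05410, HEMA2, VDE, PORC and FRK1); without replicate number 1, 2 or 3 the calls lost were 16, 9 and 17. The joint count was 3089 by the methods' ANOVA on linear signal (3526 at an unadjusted p under 0.01), 2151 with WT-sib alone, 2618 with bzip1-1 alone, 3449 at an adjusted p under 0.01, 1701 with at least a 2-fold change, and 3443 to 5543 with arrays or a replicate number left out, lowest without replicate number 3. The genotype difference stayed at 0 calls with quantile normalization, a common median, log2(signal + 32), dim probe sets left out, no trend and any of 12 single arrays left out, and gave 1056 and 194 at an unadjusted p under 0.05 and under 0.01. L*N gave 1828 at an unadjusted p under 0.05 and 29 to 80 with arrays left out (73 without WT-sib N-L- replicate 2 and without WT-sib N-L+ replicate 1, 67 without WT-sib N+L- replicate 2), highest without both N-L+ arrays of replicate number 1. With no trend, 2 chlorophyll genes, 2 touch and defence genes and 0 plastid-encoded genes were called; with dim probe sets left out, 1 heat shock and 3 plastid-encoded genes; with quantile normalization, 2 plastid-encoded genes. By the methods' ANOVA on linear signal 25 of the 118 named joint results lost their call. With WT-sib alone, bzip1-1 alone and no trend, 22, 18 and 9 of them lost it. Of the 12 named L*N results, 5 lost their call with no trend and 2 with log2(signal + 32). The cause of these moves was not tested. Low signal limits the size of changes where 1 treatment is near the bottom of the scale.

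The replicate block was part of the model, but equal numbers need not pair arrays: deviations from group means correlated at a median of 0.50 (-0.11 to 0.70) over 18 pairs with the same number and at -0.15 over 36 pairs with different numbers. With no replicate block the joint count was 3971, 2004 higher and 1967 lower, the average N count was 273 (203 up, 70 down), the L*N count was 13 and the genotype difference stayed at 0. Calls were then 3 for nitrate-response regulators, 2 for chlorophyll synthesis and 0 for plastid-encoded genes, 12 of the 118 named results lost their call (DPE2, MYB12, CHE, GDH2, LBD38, LBD39, GAT1_2.1, BZIP44, NRT1.1, HEMA2, PORC and FRK1), and of 12 named L*N results BT2 and DREB2A kept theirs.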

Other observations

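The called L*N values were nearly all above 0, but the values of all probe sets were not. Of 44 called probe sets 43 lay above 0, whereas 12840 of all 22746 lay below 0, with a median of -0.05. At an unadjusted p under 0.05 there were 758 above 0 and 1070 below.

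Of 47 probe sets with a UGT symbol in the platform's table, which stands for glycosyltransferases, 13 rose (27.7%) and 8 fell (17.0%) in N+L+, beside 9.89% and 11.4% of all 13436 platform-named probe sets. The changes ran from -2.03 for UGT85A4 to 5.68 for UGT73C1, over all 47 whether or not they were brighter or called. UGT73C1 is absent from the highest changes among brighter called probe sets given above. Its probe set was therefore dim or not called, and its value is given only as the end of the range. UGT73B4 lay at 1453, 1633 and 2413 on N+L+ arrays, against 204, 289 and 449.6 on N-L- arrays, and rose by 2.52 ± 0.20 (adjusted p = 2e-06). The family was chosen after its values were seen, and no test of it was made.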
